A study of Mus musculus with 12 samples.

Results

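The skeletal muscle machinery that turns an electrical signal into calcium release was followed through 10 genes, which were looked up by symbol and all had a row among the 15113 genes of the count table. They encode the ryanodine receptors (Ryr1, Ryr3), the calsequestrins (Casq1, Casq2), subunits of the dihydropyridine receptor (Cacna1s, Cacnb1), the SERCA pumps (Atp2a1, Atp2a2) and the junctophilins (Jph1, Jph2). RNA came from C2C12 cells, a mouse myoblast line, which were grown to confluence in 10% FBS and differentiated into myotubes in 2% horse serum. The myotubes were exposed for 16 h to 20 μM BAM15, a mitochondrial protonophore dissolved in DMSO, or to vehicle, with 6 libraries each. C2C12 is a single line without nerve or animal context, and nothing in the labels ties a library to a separate culture, so that p-values measure the spread between these libraries, which may be technical.

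In a skeletal muscle fiber, the voltage sensor in the transverse tubule (the dihydropyridine receptor) is thought to pull open the ryanodine receptor in the facing membrane of the sarcoplasmic reticulum. Calcium held in the store by calsequestrin then enters the cytosol and starts contraction, and SERCA pumps it back. Junctophilins hold both membranes together at the junction.

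After BAM15, 3 of the 10 genes had lower RNA levels (Casq1, Casq2 and Ryr3) and none had higher levels at an adjusted p-value below 0.01 (quasi-likelihood test in edgeR, p-values adjusted by Benjamini-Hochberg, BH, over the 12730 genes tested). Below, log2FC is the log2 fold change of BAM15 against vehicle and SE its standard error. In bulk RNA, fewer cells of a type and less RNA per cell cannot be told apart. Among all tested genes the share lower by this rule was 20.3%, the share higher 22% and the share in either direction 42.3%, or 45.8% among genes counted at least as highly as Ryr3, the lowest of the 10. DESeq2 and limma-voom likewise called 0 of the 10 higher and 3 lower, and in edgeR 2 (Cacnb1 and Atp2a2) had higher values at an unadjusted p-value below 0.05. The study also asked for a base mean above 50 and more than a 2-fold change. With those added, 0 of the 10 genes passed, against 3.7% of tested genes higher, 3.58% lower and 7.28% in all. The median log2FC of the 10 genes was −0.12, beside 0.02 over all tested genes. All 10 passed the filter on low counts, and the groups did not overlap in 1 of them (Casq1), against 34.2% of all tested genes (17.1% higher, 17% lower).

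**Figure D1:**
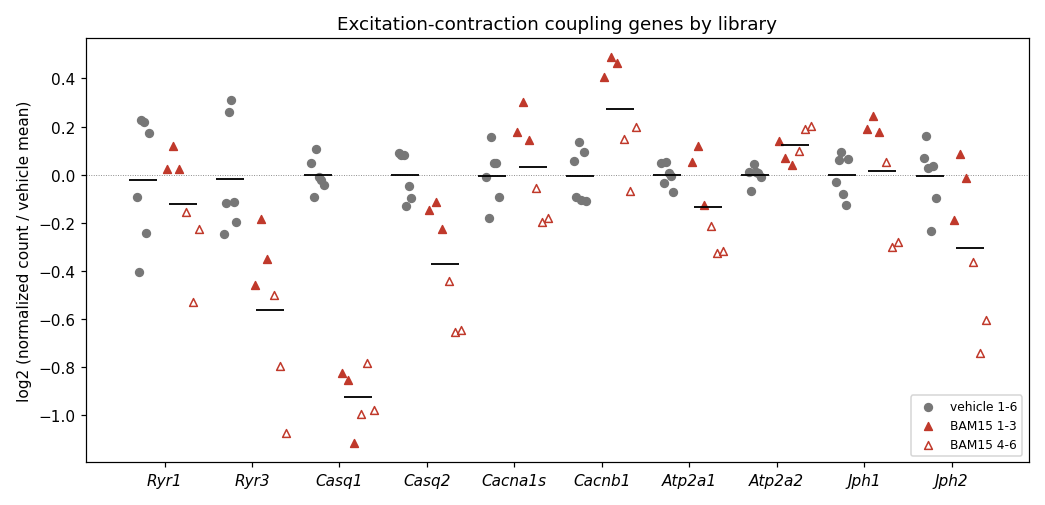
Log2 ratio of each library's normalized count to the vehicle mean (vertical axis) for the 10 genes (horizontal axis). Circles are the 6 vehicle libraries, filled triangles BAM15 libraries 1 to 3, open triangles BAM15 libraries 4 to 6, and lines the mean of the log2 values of each condition. Only in Casq1 did 6 of 6 BAM15 libraries lie on the same side of the vehicle range, and in 8 of the 10 genes libraries 4 to 6 lay below libraries 1 to 3. The share of all tested genes split by number in this way was not computed.

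The calsequestrins bind calcium in the lumen of the store, Casq1 being the form of fast skeletal fibers and Casq2 the form of heart and slow fibers. Casq1 had the largest change of the 10 genes and Casq2 the highest count, so their promoters are shown, together with that of Atp2a3, a SERCA gene described with the pumps. Each runs 5′ to 3′ on the gene's strand from 250 bases before to 50 after the RefSeq transcription start (GRCm38.p6), with matches to the E-box motif CANNTG, which reads the same on both strands, in capitals.
Casq1 (chr1:172219846-172220145, minus strand): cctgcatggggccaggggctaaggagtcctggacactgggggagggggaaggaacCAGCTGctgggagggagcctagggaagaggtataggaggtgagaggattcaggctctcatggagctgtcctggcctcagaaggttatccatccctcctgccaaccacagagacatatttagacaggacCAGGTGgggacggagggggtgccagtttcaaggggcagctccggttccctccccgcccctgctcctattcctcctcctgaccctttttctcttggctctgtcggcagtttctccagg
Casq2 (chr3:102086165-102086464, plus strand): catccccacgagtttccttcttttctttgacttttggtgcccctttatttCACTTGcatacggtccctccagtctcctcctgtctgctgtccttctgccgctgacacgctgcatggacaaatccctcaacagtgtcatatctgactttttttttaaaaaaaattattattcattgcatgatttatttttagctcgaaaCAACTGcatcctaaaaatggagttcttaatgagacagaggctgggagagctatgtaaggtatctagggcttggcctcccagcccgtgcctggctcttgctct
Atp2a3 (chr11:72960919-72961218, plus strand): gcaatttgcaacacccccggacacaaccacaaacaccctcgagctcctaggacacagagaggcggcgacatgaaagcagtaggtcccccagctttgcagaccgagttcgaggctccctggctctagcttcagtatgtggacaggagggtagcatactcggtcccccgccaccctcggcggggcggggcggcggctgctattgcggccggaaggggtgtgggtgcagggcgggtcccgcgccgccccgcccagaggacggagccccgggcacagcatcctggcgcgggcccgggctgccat
Casq1 held CAGCTG at −195 and CAGGTG at −67, Casq2 held CACTTG at −200 and CAACTG at −52 (first base, counted from the start site), and Atp2a3 held none. An E-box occurred in 72.3% of the 32851 RefSeq promoter windows and CAGCTG, one form of it, in 16.3%. Of the 10 genes, 7 had a promoter in the table, 6 of them with an E-box and 4 with CAGCTG (Atp2a1, Cacna1s, Casq1 and Jph2). These 7 genes had 9 windows, and a gene was counted if any of its windows held the motif, whereas the shares above are per window. The letters TGATGNAA, the start of a C/EBP-ATF composite site searched on both strands, were found in 0 of these 7 genes and in 3.97% of all windows. A match is a description of the letters and not of a bound site.

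Casq1 (chromosome 1, 172209894 to 172219868) had a lowest, median and highest count of 2037, 2150 and 2342 normalized counts with vehicle and of 1003, 1153 and 1262 after BAM15. The highest BAM15 library was far below the lowest vehicle library. Its RNA fell by 47.2%, from 2173 ± 108 to 1148 ± 98.7 normalized counts (SD, n = 6 each), a log2FC of −0.92 (SE 0.06, edgeR adjusted p = 1.04e-08). This is a larger change than that of 86.1% of tested genes. The call held in 24 of 24 alternative settings, with log2FCs between −0.98 and −0.88.

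Casq2 (chromosome 3, 102086415 to 102146514), one of the most abundant transcripts with rank 55 of the tested genes by mean count, had a lowest, median and highest value of 27212, 30154 and 31738 normalized counts with vehicle and of 18914, 23700 and 27487 after BAM15. In 5 of 6 BAM15 libraries the value was below every vehicle library, and library 2 reached into the vehicle range. Casq2 fell by 21.8%, from 29776 ± 2055 to 23289 ± 3862 normalized counts, a log2FC of −0.35 (SE 0.10, edgeR adjusted p = 6.54e-03). The call was lost at this threshold when 1 library was left out in 6 cases, namely BAM15 library 4 (adjusted p = 0.0166) or 6 (0.0129) or vehicle library 1 (0.0162), 2 (0.0129), 3 (0.0155) or 5 (0.0106), all by edgeR, whereas the direction did not change.

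The ryanodine receptors are the release channels of the store, Ryr1 being the main form of skeletal muscle and Ryr3 a form found mostly in developing fibers. Ryr1 (chromosome 7, 29003344 to 29125179) ranged from 4091 over a median of 5599 to 6346 normalized counts with vehicle and from 3762 over 5188 to 5893 after BAM15. The groups overlapped almost throughout, and the log2FC of −0.11 (SE 0.13, edgeR adjusted p = 0.495) did not pass. Ryr3 (chromosome 2, 112631355 to 113217096) was counted far less, from 195 over a median of 213 to 287 normalized counts with vehicle and from 110 over 166 to 203 after BAM15. Only BAM15 library 2, the highest of its group, lay within the vehicle range. Ryr3 fell by 30.7%, from 231 ± 40.2 to 160 ± 33.6 normalized counts, a log2FC of −0.53 (SE 0.15, edgeR adjusted p = 6.50e-03). The call was lost without BAM15 library 1 (adjusted p = 0.0103), 4 (0.0127), 5 (0.0121) or 6 (0.0111) and without vehicle library 3 (0.0180) or 4 (0.0178). Exons of Aven on the opposite strand cover all 400 of the last 400 bases of Ryr3, where the reads of a 3′ library fall, and the strand used for counting is not given in the sources used here. Aven itself had a log2FC of −0.12 that did not pass (edgeR, adjusted p = 0.187).

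The dihydropyridine receptor senses the voltage, with Cacna1s as its pore-forming subunit and Cacnb1 as the intracellular subunit that helps to bring it to the membrane. Cacnb1 (chromosome 11, 98001508 to 98023034) had a lowest, median and highest count of 3660, 3900 and 4342 normalized counts with vehicle and 3764, 4874 and 5538 after BAM15. In 5 of 6 BAM15 libraries the count was above every vehicle library, library 5 being the exception. The log2FC of 0.29 (SE 0.09, edgeR adjusted p = 0.0150) missed the threshold, and without BAM15 library 5 it was 0.35 (edgeR adjusted p = 1.02e-03). Cacna1s (chromosome 1, 136052750 to 136119822) ranged from 2078 over a median of 2388 to 2628 normalized counts with vehicle and from 2053 over 2436 to 2902 after BAM15. The log2FC was 0.04 (SE 0.09, edgeR adjusted p = 0.699), with a sign that turned when only library size set the scale (−0.02) and without BAM15 library 2 (−0.01). Exons of Gm37759 on the opposite strand cover all of the last 400 bases of Cacna1s.

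The pumps encoded by Atp2a1 (SERCA1, the form of fast fibers) and Atp2a2 (SERCA2, the form of slow fibers, heart and other cells) differed between conditions by less than 10% of the vehicle mean, and neither passed. Atp2a1 (chromosome 7, 126445858 to 126463108) had a lowest, median and highest value of 8707, 9155 and 9484 normalized counts with vehicle and of 7306, 8147 and 9938 after BAM15. The BAM15 libraries lay on both sides of the vehicle range, 4 below it (libraries 3 to 6) and 2 above it (libraries 1 and 2). The log2FC of −0.12 (SE 0.08, edgeR adjusted p = 0.185) did not pass. Exons of Rabep2 on the opposite strand cover 269 of its last 400 bases, and Rabep2 had 197 ± 5.85 normalized counts with vehicle and 197 ± 30.2 after BAM15. Atp2a2 (chromosome 5, 122453513 to 122502225) ranged from 9326 over a median of 9831 to 10075 with vehicle and from 10038 over 10618 to 11229 normalized counts after BAM15. All but the lowest BAM15 library were above the vehicle range, yet the log2FC of 0.12 (SE 0.05, edgeR adjusted p = 0.0364) missed the threshold of 0.01.

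Another SERCA gene, Atp2a3, which is known from blood, endothelial and secretory cells, was one of the companion genes. It had between 2.87 and 9.69 normalized counts with vehicle (median 6.86) and between 134 and 198 after BAM15 (median 161). No vehicle library held more than 11 reads of Atp2a3, so that it passed the filter on low counts through the BAM15 libraries. The gap between conditions and the size of the change rest on these very low vehicle counts. Atp2a3 (chromosome 11, 72961169 to 72993044) rose by 4.63 on the log2 scale (SE 0.20, edgeR adjusted p = 7.83e-11, higher in 6 of 6 BAM15 libraries). Mrln, which encodes myoregulin, a micropeptide that inhibits SERCA in skeletal muscle, fell from 312 ± 17.3 to 139 ± 12.9 normalized counts (log2FC −1.17, SE 0.08, edgeR adjusted p = 9.36e-09, lower in 6 of 6). Srl, which encodes sarcalumenin of the store lumen, had a log2FC of −0.22 that did not pass. The list of pump partners with these 3 genes also held Thbs1, which encodes thrombospondin-1, a secreted matrix protein, and which fell (log2FC −2.69, edgeR adjusted p = 1.96e-10). With Thbs1, 1 of 4 tested genes was higher and 2 were lower (median log2FC −0.70), and without it 1 was higher and 1 lower. Among all tested genes 22% were higher and 20.3% lower.

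Junctophilins span from the surface membrane or tubule to the store. Jph1 (chromosome 1, 16964560 to 17097889) had a lowest, median and highest count of 2351, 2589 and 2736 normalized counts with vehicle and of 2078, 2777 and 3033 after BAM15. Its BAM15 libraries enclosed the vehicle range, and the log2FC of 0.03 (SE 0.09, edgeR adjusted p = 0.806) did not keep its sign when libraries were scaled by size alone (−0.04) or when BAM15 library 2 was left out (−0.0154). Jph2 (chromosome 2, 163336242 to 163397993) ranged from 2663 over a median of 3205 to 3506 normalized counts with vehicle and from 1874 over 2594 to 3321 after BAM15. BAM15 libraries 4 to 6 were below every vehicle library. The log2FC of −0.27 (SE 0.13, edgeR adjusted p = 0.0830) did not pass in the comparison of all libraries.

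Relative to the mean, the spread between BAM15 libraries was wider than between vehicle libraries in 9 of the 10 genes, Ryr1 being the exception. How often this held among all tested genes was not computed, so that it cannot be called a trait of the 10 genes. In Atp2a1, for example, the SD was 13.2% of the mean after BAM15 and 3.31% with vehicle. In 8 genes, all but Casq1 and Atp2a2, each of the BAM15 libraries numbered 4 to 6 was below each of those numbered 1 to 3, whereas among the vehicle libraries this held for Casq2 only. The share of all tested genes split in this way was not computed, so that the split cannot be called particular to these genes. The labels do not say what the numbers stand for. Jph2, for instance, had 2753, 3321 and 3101 normalized counts in BAM15 libraries 1, 2 and 3 and 2435, 1874 and 2061 in libraries 4, 5 and 6. Pairs of libraries were also compared by a chi-square per gene, which is larger where libraries differ more. For BAM15 library 4 it was 19.1, 24.4 and 14.5 against libraries 1, 2 and 3. Against libraries 5 and 6 it was 28.2 and 26.6, and between 5 and 6 it was 9.08. Library 4 was thus nearer to libraries 1 to 3. Marker genes differed between BAM15 libraries 1 to 3 and 4 to 6. Of the 12 myotube markers, 9 (Tnnt3, a fast troponin T, among them) were lower in each of BAM15 libraries 4 to 6 than in each of 1 to 3, none was higher in each, and 3 (Myog, Ckm and Actn2) overlapped. Their sum was 381925 to 412560 normalized counts in libraries 1 to 3 and 311650 to 345525 in 4 to 6, although Acta1, one of the 9, stayed above every vehicle library in all 6. Of the 10 tested markers of undifferentiated or cycling myoblasts, 7 were higher in each of libraries 4 to 6, among them Myf5 (188 to 297 and 554 to 845 normalized counts in libraries 1 to 3 and 4 to 6) and Hes1 (395 to 544 and 927 to 1501). Mki67 and Top2a, both markers of cycling cells, were lower in libraries 4 to 6, and Pax7 overlapped. Myf5, Myog, Ckm, Actn2, Mki67 and Pax7 were named after their values were seen. The myoblast sum was 3226 to 3545 in libraries 1 to 3 and 4395 to 5266 in 4 to 6. The part of these differences in the values of the 10 genes was not tested.

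When only libraries 1 to 3 of each condition were compared, Casq1 (log2FC −0.95) and Casq2 (−0.25) were lower and Cacnb1 (0.41, adjusted p = 1.54e-05) was higher, whereas Ryr3 (−0.31, adjusted p = 0.0553) did not pass (edgeR, BH). In that fit 22.2% of all tested genes were lower and 22.2% higher. With libraries 4 to 6, lower levels were found for 5 genes, namely Casq1 (−0.90), Casq2 (−0.50), Ryr3 (−0.79), Jph2 (−0.48, adjusted p = 2.15e-03) and Atp2a1 (−0.27, adjusted p = 8.65e-03), in a fit by edgeR in which 16.7% of all tested genes were lower and 16.5% higher. Cacna1s (0.21 and −0.16), Jph1 (0.16 and −0.13) and Ryr1 (0.12 and −0.37) had opposite signs in the sets of lower and higher numbers, and none of these 6 values passed. The difference between both sets, tested with an interaction term in edgeR, passed for none of the 10 genes. It was largest for Ryr1 (−0.48, adjusted p = 0.221) and had its lowest adjusted p-value for Cacna1s (−0.36, SE 0.11, adjusted p = 0.0766). Over all tested genes, 0 passed an adjusted p-value of 0.01 for this term, 2.66% passed 0.05 and 26% had an unadjusted p-value below 0.05 by edgeR. Of the 10 genes, Casq2, Cacna1s, Cacnb1, Atp2a1, Jph1 and Jph2 had such an unadjusted p-value. That none passed after adjustment does not show that both sets agree. Casq1 had nearly the same change in both sets (difference 0.06, SE 0.12).

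**Figure D2:**
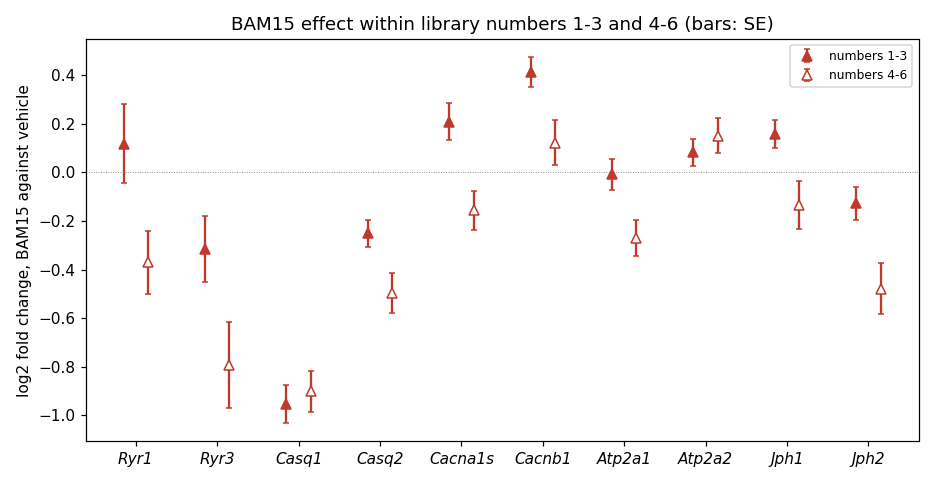
Log2FC of BAM15 against vehicle (vertical axis) for the 10 genes (horizontal axis), fitted by edgeR to libraries 1 to 3 (filled) and to libraries 4 to 6 (open) separately. Bars are standard errors. Casq1 lies between −0.95 and −0.90 in both, and Cacna1s, Jph1 and Ryr1 change sign.

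To ask whether the genes of a pair moved by different amounts, the log2 ratio of their CPM was taken within each library (CPM are counts scaled to library size), where the scaling of the library is almost without influence. Each transcript gives reads from its 3′ end only, so that a ratio is not divided by length. All 4 ratios differed between conditions by a two-sided exact permutation test over all splits of 6 against 6 libraries, whose smallest possible p is 0.00216, at adjusted p-values over the 4 ratios below 0.05. Among all tested genes 42.3% were called in either direction, and the share of other gene pairs whose ratio differs was not computed. The differences can therefore not be called particular to these pairs. The log2 ratio of Casq1 to Casq2 went from −3.94, −3.75 and −3.65 (lowest, median, highest) with vehicle to −4.65, −4.38 and −3.90 after BAM15, a difference of −0.55 (SE 0.12, exact p = 4.33e-03, adjusted 8.66e-03). The ratio of Jph1 to Jph2 went from −0.45, −0.31 and −0.12 to −0.13, 0.06 and 0.15, a difference of 0.31 (SE 0.08, exact p = 4.33e-03, adjusted 8.66e-03). In both pairs 5 of 6 BAM15 libraries lay outside the vehicle range.

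The ratio of Ryr1 to Ryr3 had a lowest, median and highest value of 4.21, 4.45 and 4.87 on the log2 scale with vehicle and of 4.73, 4.84 and 5.30 after BAM15, a difference of 0.42 (SE 0.12, exact p = 0.0108, adjusted 0.0144). Here 2 BAM15 libraries were above the vehicle range. The ratio of Atp2a1 to Atp2a2 was tightly set with vehicle, between −0.16 and −0.06, and spread from −0.61 to −0.05 after BAM15. Its difference of −0.26 (SE 0.10, exact p = 0.0216, adjusted 0.0216) was −0.09 within libraries 1 to 3 and −0.42 within libraries 4 to 6. For Casq1 to Casq2 the differences within these sets were −0.70 and −0.40, for Ryr1 to Ryr3 0.43 and 0.40 and for Jph1 to Jph2 0.29 and 0.34. With 3 against 3 libraries the exact test cannot go below 0.1, so that these values carry no test.

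**Figure D3:**
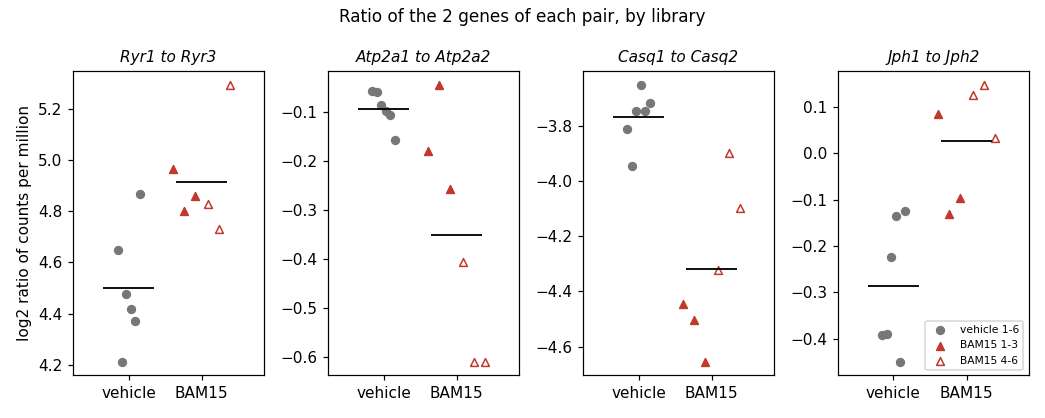
Log2 ratio of CPM of the 2 genes of each pair (vertical axes, which differ between panels and do not start at 0) in vehicle (circles) and BAM15 libraries (filled triangles, 1 to 3; open triangles, 4 to 6), with the mean as a line. In the pair of Casq1 and Casq2 the mean fell from −3.77 to −4.32, and in the pair of Jph1 and Jph2 it rose from −0.29 to 0.03.

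The companion genes of the pathway were taken from lists of the partners of each component. The counts of each list stand beside 22% of all tested genes higher and 20.3% lower, and no list was tested as a set. Of 13 tested partners of the voltage sensor, 2 were higher and 5 lower (median log2FC −0.35). Rem1, a small GTPase that inhibits calcium channels through their β subunit, had 360 to 410 normalized counts with vehicle and 202 to 250 after BAM15, a log2FC of −0.74 (SE 0.08, edgeR adjusted p = 1.12e-06). Stac2, an adaptor related to Stac3, had 820 to 929 and 1104 to 1334 normalized counts, a log2FC of 0.49 (SE 0.06, edgeR adjusted p = 9.09e-06). In neither gene did the groups overlap, which held for 34.2% of all tested genes. Both genes were named for having the lowest p-values of their list. Stac3 itself, the adaptor that skeletal coupling depends on and a gene chosen after its values were seen, had a log2FC of −0.38 (edgeR adjusted p = 7.89e-03), a call lost in 8 of the 12 fits made with 1 library less (adjusted p up to 0.0218 without vehicle library 1). Of the other β subunits, Cacnb3 had a log2FC of −0.07 and Cacnb2 of −0.33, and neither passed (adjusted p = 0.421 and 0.302, edgeR).

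Among 18 tested genes of the release complex and store lumen, 8 were lower and 1 was higher (median log2FC −0.19). The higher gene was Itpr2, which encodes an inositol trisphosphate receptor, the other kind of release channel. It went from 412 to 581 normalized counts with vehicle to 963 to 1468 after BAM15, a log2FC of 1.33 (SE 0.11, edgeR adjusted p = 5.40e-08). Trdn, which encodes triadin and anchors calsequestrin to the ryanodine receptor, fell from 3678 ± 327 to 2542 ± 273 normalized counts, a log2FC of −0.53 (SE 0.08, edgeR adjusted p = 3.93e-05). Calm3, which encodes calmodulin, a calcium sensor that binds the ryanodine receptor, fell too (log2FC −0.53, edgeR adjusted p = 6.33e-06). Trdn and Calm3 were chosen after their values were seen. Ryr2, Jph3, Jph4, Cacna1c and Cacnb4 had no row under these symbols in the count table and were not analysed.

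**Figure D4:**
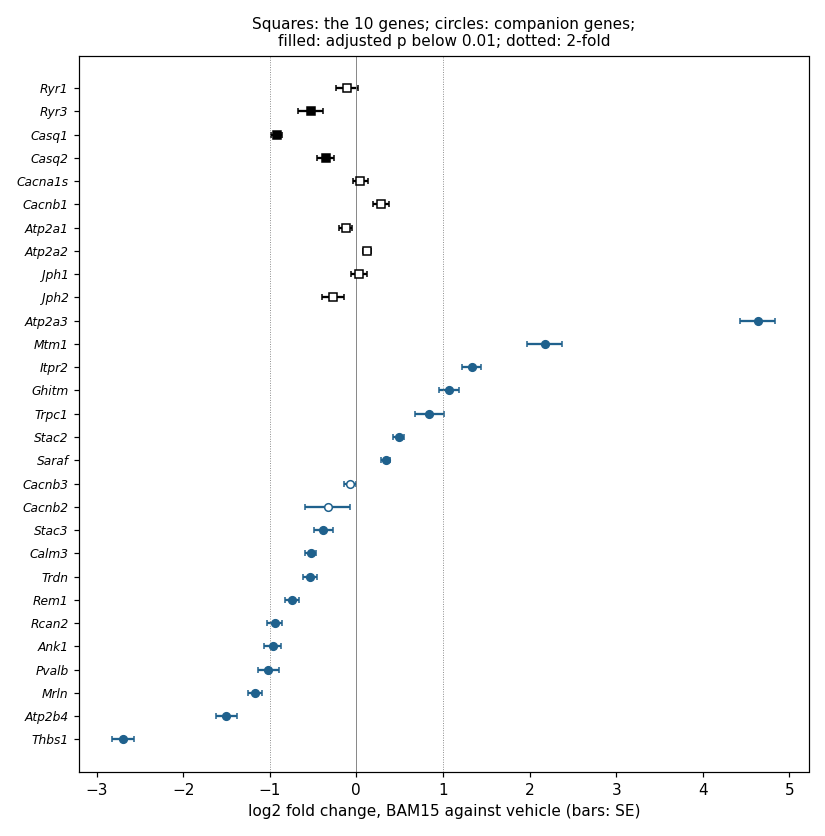
Log2FC of BAM15 against vehicle with its standard error (horizontal axis) for the 10 genes (squares) and named companion genes (circles). Filled symbols have an adjusted p-value below 0.01 by edgeR, and dotted lines mark a 2-fold change. The 10 genes lie between −0.92 and 0.29, the companion genes between −2.69 (Thbs1) and 4.63 (Atp2a3).

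In the list of 12 tested triad and tubule genes, 3 were higher and 3 lower (median −0.08). Mtm1, a lipid phosphatase mutated in myotubular myopathy, rose from 11.5 to 35.1 normalized counts with vehicle to 73.3 to 118 after BAM15, a log2FC of 2.17 (SE 0.20, edgeR adjusted p = 3.03e-07). With a vehicle mean of 21.7, its base mean of 59.8 passed 50 only through the BAM15 libraries. Ank1, whose small muscle isoforms tie the store to obscurin and which was chosen after its values were seen, fell from 6751 ± 467 to 3454 ± 561 normalized counts (log2FC −0.97, edgeR adjusted p = 6.11e-07).

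For calcium entry through store-operated channels, 3 of 8 tested genes were higher and 2 lower (median 0.05). Saraf, a brake on this entry, had a log2FC of 0.34 (adjusted p = 8.79e-05) and Trpc1 of 0.84 (edgeR adjusted p = 6.62e-04), though Trpc1 had only 12.3 to 35.7 normalized counts in any library. Neither passed within libraries 4 to 6. Of 4 tested genes of calcium export across the surface, 1 was higher and 1 lower (median −0.29). The lower one was Atp2b4, a plasma membrane calcium pump, which fell by 64.7%, from 1443 ± 160 to 509 ± 104 normalized counts (edgeR, adjusted p = 9.17e-08). The higher one was Atp2b1, a more abundant pump of the same membrane, named after its values were seen. It rose from 6190 ± 344 to 7682 ± 559 normalized counts (log2FC 0.31, edgeR adjusted p = 4.29e-04).

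Of 13 tested genes of mitochondrial calcium handling, 4 were higher and 1 lower (median 0.08). Ghitm, which encodes an inner membrane protein, rose from 3607 ± 259 to 7582 ± 1604 normalized counts (log2FC 1.07, edgeR adjusted p = 2.26e-06). In the list of 17 cytosolic buffers and sensors, 4 were higher and 4 lower (median −0.12). The buffer Pvalb (parvalbumin) fell from 179 ± 21.5 to 88.2 ± 15.1 normalized counts, a log2FC of −1.02 (SE 0.12, edgeR adjusted p = 4.52e-06), and Rcan2, an inhibitor of calcineurin chosen after its values were seen, fell by 0.94 on the log2 scale (edgeR adjusted p = 4.29e-07). Ppp3ca, which encodes a catalytic subunit of calcineurin, was among the higher genes and was also named after its values were seen. It rose from 5249 ± 223 to 9398 ± 787 normalized counts (log2FC 0.84, edgeR adjusted p = 2.01e-08).

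The label of a myotube was checked against marker genes. Their counts stand beside 22% of all tested genes higher and 20.3% lower. All 12 myotube markers were tested, 2 being higher and 4 lower. Acta1, the most abundant, had 117809 to 135139 normalized counts with vehicle and 156460 to 192475 after BAM15. The summed level of the 12 was 332828 to 367135 with vehicle and 311650 to 412560 after BAM15, with Acta1 as its largest part. Myog was the other higher marker. Mef2c (from 29103 ± 1277 to 16951 ± 2452 normalized counts), Mymx, Mymk and Ckm were lower. All of these but Acta1 were named after their values were seen. Markers of undifferentiated or cycling myoblasts were also present, 10 of 12 being tested, with a summed level of 7305 to 8993 normalized counts with vehicle and 3226 to 5266 after BAM15. Of these, 1 was higher and 5 lower, Top2a and Hes1 being the most abundant (2799 to 3438 and 850 to 1459 normalized counts with vehicle). The higher gene was Myf5 (log2FC 1.69, edgeR adjusted p = 1.44e-03). The lower genes were Top2a (from 3241 ± 230 to 1175 ± 217 normalized counts), Ccnd1, Cdk1, Mki67 and Pax7. Hes1 did not pass (edgeR adjusted p = 0.235). Of these names, all but Top2a and Hes1 were chosen after their values were seen. Of 6 fibroblast markers 3 were tested, 0 being higher and 2 lower, with a summed level of 10142 to 11890 normalized counts with vehicle and 6149 to 7393 after BAM15, nearly all from Col1a1 and Dcn. Of 7 cardiac markers 3 were tested, 0 being higher and 1 lower. Their sum of 34075 to 35622 normalized counts with vehicle and 29190 to 31204 after BAM15 came almost wholly from Myl4, which embryonic skeletal muscle also expresses. Nppa, Nppb and Myl7 had no row under these symbols in the count table and were not analysed. The part of the lower myoblast and fibroblast sums in the changes of the 10 genes was not tested.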

How the data were processed

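The authors deposited counts, whole numbers of reads per Ensembl gene that were not normalized, from QuantSeq 3′ libraries aligned with BlueBee software. The submitters' processing notes name the build GRCm38 (mm10) and DESeq2 1.22.2. The aligner, annotation and strand are not given in the sources used here. A second deposited table of normalized signal was the counts times 1 factor per library, and it served for gene symbols, with missing ones filled from the annotation. 11 columns of other samples were not used. Libraries held 13983725 to 18866728 counts.

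Counts were filtered with filterByExpr (12730 of 15113 genes left), scaled by TMM and compared with edgeR 4.0.16 (quasi-likelihood, robust, condition as only term) in R 4.3.3, with Benjamini-Hochberg adjustment. Normalized counts are TMM-scaled to the mean library, and the standard error is the log2 fold change divided by the square root of F. Ratios used a pseudocount of 0.5 CPM. Alternatives were DESeq2 1.42.0, limma-voom (limma 3.58.1), other scalings and filters, blocks for library numbers, subsets of numbers and each library left out. The fits were tested on simulated data. Positions and overlaps come from GENCODE M21 and promoters from RefSeq. Members and lists were chosen with earlier results of these data known. Named were the 10 members, other genes of their families, companion genes past all 3 thresholds (or the 2 of lowest p in a list without one) and the 2 most abundant markers of each list. A few more were chosen after their values were seen. The result of 1 gene is not reported here.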

Additional observations from a re-analysis of the deposited data

How the results depend on the processing

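Casq1 kept its call and direction in all 24 settings tried for it. The number of members called lower, 3 with all libraries, was 5 with library numbers 4 to 6 only and between 1 and 3 when 1 library was left out (1 without BAM15 replicate 4, BAM15 replicate 6 or vehicle replicate 3). The number called higher, 0 with all libraries, was 1 (Cacnb1) with library numbers 1 to 3 only, 1 with a block for library numbers 1 to 3 against 4 to 6, 0 to 1 when 1 library was left out (1 without BAM15 replicate 5), and 2 at an adjusted p-value below 0.05. Of the genes that did not pass, Jph2 passed with the block for number sets (log2 fold change −0.29, adjusted p = 5.46e-03, edgeR). Signs turned for Ryr1 (0.12 with numbers 1 to 3), Cacna1s (−0.0241 by library size only, −0.16 with numbers 4 to 6, −0.0123 without BAM15 replicate 2, and between there and 0.0886 over all libraries left out in turn), Jph1 (−0.0383 by library size only, −0.13 with numbers 4 to 6, and −0.00351, −0.0154 and −1.64e-04 without BAM15 replicate 1, 2 and 3, up to 0.0891 without BAM15 replicate 5), Cacnb2 (0.0139 with numbers 1 to 3) and the marker Myh6 (−0.0224 with numbers 1 to 3, −0.00676 without BAM15 replicate 4, up to 0.165 without vehicle replicate 6), none of which passed in the comparison of all libraries. The cause was not tested. In the companion lists, numbers 1 to 3 alone gave 3 lower voltage sensor partners, 2 higher release genes, 5 lower triad genes, 1 lower store-operated entry gene, 2 lower export genes and 2 lower mitochondrial genes. With numbers 4 to 6 alone there was 1 higher voltage sensor partner, 1 higher triad gene, 0 higher store-operated entry genes, 0 higher export genes and 2 higher mitochondrial genes. For these 2 counts of 0, fewer libraries entered the fit. The block for number sets gave 2 lower export genes (1 to 2 when 1 library was left out), library size only gave 2 lower mitochondrial genes, and a minimum of 10 counts in every library removed Atp2a3, leaving 0 higher pump genes.

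Libraries of the same number deviated from their group means with correlations between −0.08 and 0.38. No vehicle library correlated best with the BAM15 library of its own number, so that the numbers were not taken to pair the samples. With a replicate block, 3 members were lower and 0 higher, with log2 fold changes of −0.92 for Casq1, −0.37 for Casq2 and −0.54 for Ryr3, and no call among the 10 changed. All 4 paralog ratios kept their direction and stayed below 0.05 at other pseudocounts and without any 1 library. No value of the 10 genes or 4 ratios in a group of 6 stood apart by Dixon's test. At this depth the lowest count of a member in any library was 94 reads (Ryr3), so that detection limits none of them.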
